A study of Mus musculus with 6 samples.

Results

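The 9 genes described here are those that macrophages use to recognise and take up debris, together with genes that mark macrophage states: the C1q chains C1qa, C1qb and C1qc, the scavenger receptors Marco, Msr1, Mrc1 and Cd163, and the state genes Trem2 and Mmp12. They were taken by symbol from the 45706 genes of the deposited table, and each of the 9 matched 1 row. The set was chosen by gene function together with fitted DKK1 changes seen earlier in these same libraries, so the fitted changes and adjusted p-values given for them below describe these libraries and are no independent evidence. RNA was measured by sequencing in primary lung fibroblasts from wild-type mice, grown from collagenase- and trypsin-digested lungs in serum-containing medium for 7 days and then purified, by a step that the labels do not name. There were 3 control samples and 3 that received DKK1 (recombinant, mouse sequence) for 24 hours at 30 ng/ml. DKK1 (Dickkopf-1) is a secreted Wnt antagonist that binds the co-receptors LRP5 and LRP6. The labels give neither the age, sex and strain of the mice nor what the control cells received in place of DKK1, and they do not say that the replicates came from separate animals, so p-values measure only the spread between these samples. Values are CPM, counts scaled to a library total of 1000000, unless another unit is named.

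C1q is the recognition unit of the classical complement pathway: its A, B and C chains assemble into a molecule that binds antibody, dying cells and debris, and macrophages are a main source of it. Class A scavenger receptors such as MARCO and MSR1, the mannose receptor encoded by Mrc1 and the haemoglobin receptor CD163 take up modified lipoproteins, microbes, glycoproteins and haemoglobin. TREM2 senses lipids and signals through the adaptor encoded by Tyrobp, and Mmp12 encodes macrophage elastase; both are widely used to describe macrophage states in the lung.

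In each of the 3 same-numbered pairs of libraries the C1q genes were lower with DKK1 and Marco and Mmp12 were higher. C1q levels with DKK1 were 0.255 to 0.573 times those of the control library of the same number. Marco reached 2.77 to 4.29 times and Mmp12 2.02 to 4.14 times its control level. Mrc1 and Trem2 were lower by a smaller amount, at 0.625 to 0.782 times control, and Msr1 stood at 1.01 to 1.08 times control. In all, 3 members were higher in each of the 3 pairs and 5 lower, against 22.3% and 19.5% of all 14635 genes tested. The fitted change was at least 2-fold for Marco and Mmp12 (0.588% of all genes in that direction) and for the 3 C1q chains (0.266%). The groups did not overlap in CPM for 3 of the 8 members tested, against 16.5% of all genes. Cd163 was not detected above the floor of 3 counts in any library.

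The call depended on whether the replicate number was used and, without it, on the low-count filter. With no such filter the unpaired edgeR fit called Marco, Mmp12, C1qc and C1qb (adjusted p from 0.00109 to 0.0400) and 329 of 23883 genes in all. The values below are with the filter. In the unpaired comparison by edgeR's quasi-likelihood test, 0 of the 8 members tested were called at an adjusted p under 0.05, against 0.895% of all genes tested (0.697% higher and 0.198% lower); 5 of the 8 had an unadjusted p under 0.05, as did 10.6% of all genes, and DESeq2 without the block also called 0 (2.04% of all genes it tested). When edgeR also fitted a term for the replicate number (the block), 7 of the 8 were called (9.42% of all genes), 2 higher (4.96% of all genes) and 5 lower (4.46%). DESeq2 with the block called 6, all of these except Trem2, and 3.65% of all genes it tested. Same-numbered samples deviated together across genes, and rose and fell refer below to members called with the block; other genes so described were called in the fit named beside them. The members' median log2 fold change was -0.50 without and -0.49 with the block, against medians of -0.00091 and -0.00063 over all genes tested.

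**Figure D1:**
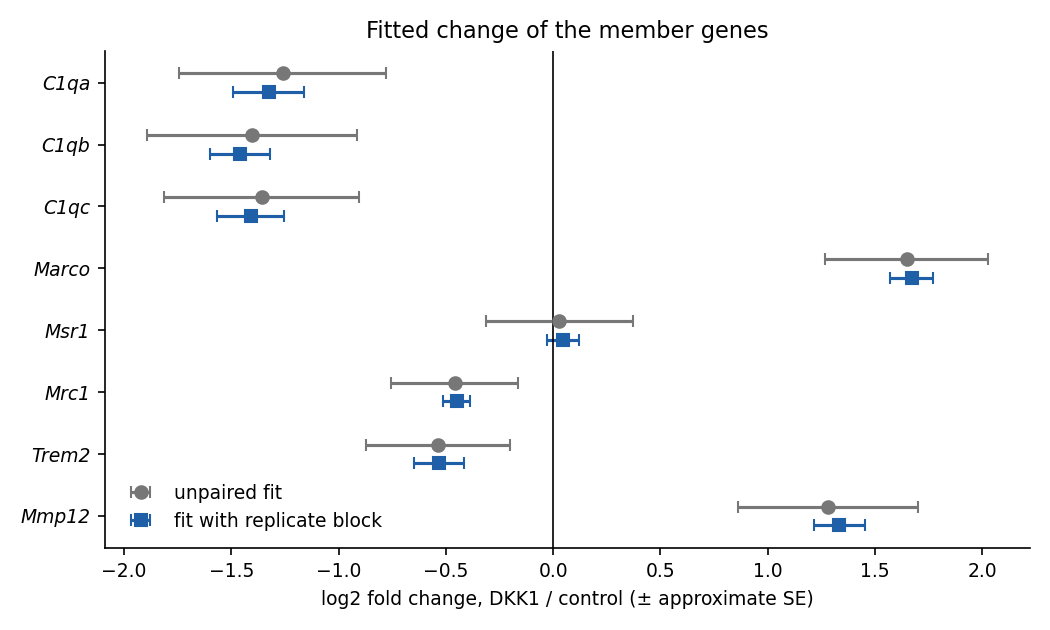
Fitted log2 fold change of the 8 tested members, DKK1 over control, with the approximate standard error as bars, in the unpaired edgeR fit (grey circles) and in the fit with the replicate block (blue squares). The estimates nearly coincide, from -1.46 for C1qb to 1.67 for Marco, while the bars with the block are shorter for each gene.

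The culture held RNA of several cell types beside fibroblasts. The 8 fibroblast markers examined summed to 11935 to 13621 CPM in control and 11257 to 12716 CPM in DKK1 libraries, and the 23 macrophage markers to 527 to 1048 and 590 to 1089 CPM. With the block edgeR called 7 of the 8 fibroblast markers, against 9.42% of all genes tested. Dcn (log2 fold change 0.62) and Pdgfra (0.27) were higher. Col1a1 (-0.10), Pdgfrb (-0.11), Thy1 (-0.12), Col1a2 (-0.13) and Vim (-0.13) were lower. Over these 7 the edgeR adjusted p ran from 9.74e-07 to 0.0354. Replicate 3 of both groups stood apart: its macrophage marker sum was 1.84 times the mean of replicates 1 and 2 in control and 1.77 times with DKK1, with ratios of 3.12 and 4.04 for epithelial, 3.50 and 2.68 for endothelial and 0.898 and 0.902 for fibroblast markers. None of the 23 macrophage markers was at 0 in all libraries, though Aif1, at 0 to 0.309 CPM, was near the floor and not tested. Library totals ran from 22565917 to 34727102 counts, at which 3 counts equal 0.0864 to 0.133 CPM; such floors cover counting error only. In bulk RNA, fewer cells of a type and less RNA per cell cannot be told apart.

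The C1q genes lie side by side on the minus strand of chromosome 4 (GRCm38): C1qb (ENSMUSG00000036905) at chr4:136880129-136886187, C1qc (ENSMUSG00000036896) at chr4:136889804-136893065 and C1qa (ENSMUSG00000036887) at chr4:136895917-136898803, with no other annotated gene overlapping them. Because the 3 neighbours moved together, the 250 bases before the RefSeq starts of C1qb and C1qc are shown, 5′ to 3′ on the gene's own strand (GRCm38.p6). The RefSeq start of C1qb lies 13 bases before the GENCODE gene given above, and that of C1qc 151 bases inside it, so 151 of the 250 C1qc bases shown belong to the GENCODE gene. Capitals mark the letters GAGGAA, the core of the motif bound by the myeloid factor PU.1, or its longer form GAGGAAGT, on either strand.
C1qb (chr4:136886201-136886450, minus strand): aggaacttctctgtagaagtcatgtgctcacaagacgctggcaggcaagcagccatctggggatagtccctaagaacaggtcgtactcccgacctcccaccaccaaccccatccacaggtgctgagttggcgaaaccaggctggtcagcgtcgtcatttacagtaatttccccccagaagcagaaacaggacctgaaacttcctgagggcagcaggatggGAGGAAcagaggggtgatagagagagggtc
C1qc (chr4:136892915-136893164, minus strand): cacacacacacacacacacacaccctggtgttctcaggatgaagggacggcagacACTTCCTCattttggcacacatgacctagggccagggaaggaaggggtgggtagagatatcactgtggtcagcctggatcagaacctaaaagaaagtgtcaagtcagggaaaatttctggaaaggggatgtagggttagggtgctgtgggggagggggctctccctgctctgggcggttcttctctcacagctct
The C1qb match starts 30 bases before the RefSeq start, and the C1qc match, of the longer form and on the opposite strand, 195 bases before it. Windows of 300 bases (250 before and 50 after a start) with GAGGAA on either strand made up 28.3% of the 32851 in the table, and those with GAGGAAGT, which are among them, 3.20%. A match describes letters and shows no binding.

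C1qb, the most abundant of the 3 chains, measured 10.6, 8.88 and 19.5 CPM in control replicates 1, 2 and 3 and 3.21, 2.42 and 9.63 CPM in the DKK1 replicates. The groups overlapped, because DKK1 replicate 3 lay above control replicate 2, yet each DKK1 value was below the control of its own number. C1qb fell by 1.46 on the log2 scale with the block (SE 0.14, edgeR adjusted p = 1.61e-05); the unpaired estimate was -1.41 (SE 0.49, adjusted p = 0.322).

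C1qa measured 7.40, 5.70 and 11.9 CPM in control and 2.30, 1.67 and 6.81 CPM with DKK1. Again DKK1 replicate 3 reached into the control range. C1qa fell by 1.33 on the log2 scale with the block (SE 0.17, edgeR adjusted p = 0.000141), against -1.26 unpaired (SE 0.48, adjusted p = 0.379).

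C1qc measured 6.82, 6.90 and 12.9 CPM in control and 2.44, 1.76 and 6.55 CPM with DKK1. Its groups did not overlap, though the gap between control replicate 1 and DKK1 replicate 3 was narrow; 7.14% of all tested genes had DKK1 values wholly below control. C1qc fell by 1.41 on the log2 scale with the block (SE 0.16, edgeR adjusted p = 5.07e-05), against -1.36 unpaired (SE 0.45, adjusted p = 0.301).

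The chains kept close proportions in every library. C1qb had 1.39 to 1.64 counts per C1qa count and C1qc 0.922 to 1.21, with no separation of the groups for C1qc, whose DKK1 values of 0.962 to 1.06 lay inside the control range. Summed over the 3 chains, the C1q level was 24.9, 21.5 and 44.2 CPM in control and 7.96, 5.85 and 23.0 CPM with DKK1. The fall was smallest in pair 3, where the 3 chains kept 0.495 to 0.573 of the control level, compared with 0.302 to 0.358 in pair 1 and 0.255 to 0.293 in pair 2. Accordingly the spread was wider with DKK1: the highest C1qa library held 4.08 times the lowest, against 2.08 times in control. Of the 6 unpaired fits that left out 1 library, the one without DKK1 replicate 3 called all 3 chains, with edgeR adjusted p from 0.0371 to 0.0378. The other 5 called none of them, with adjusted p from 0.372 to 0.662.

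**Figure D2:**
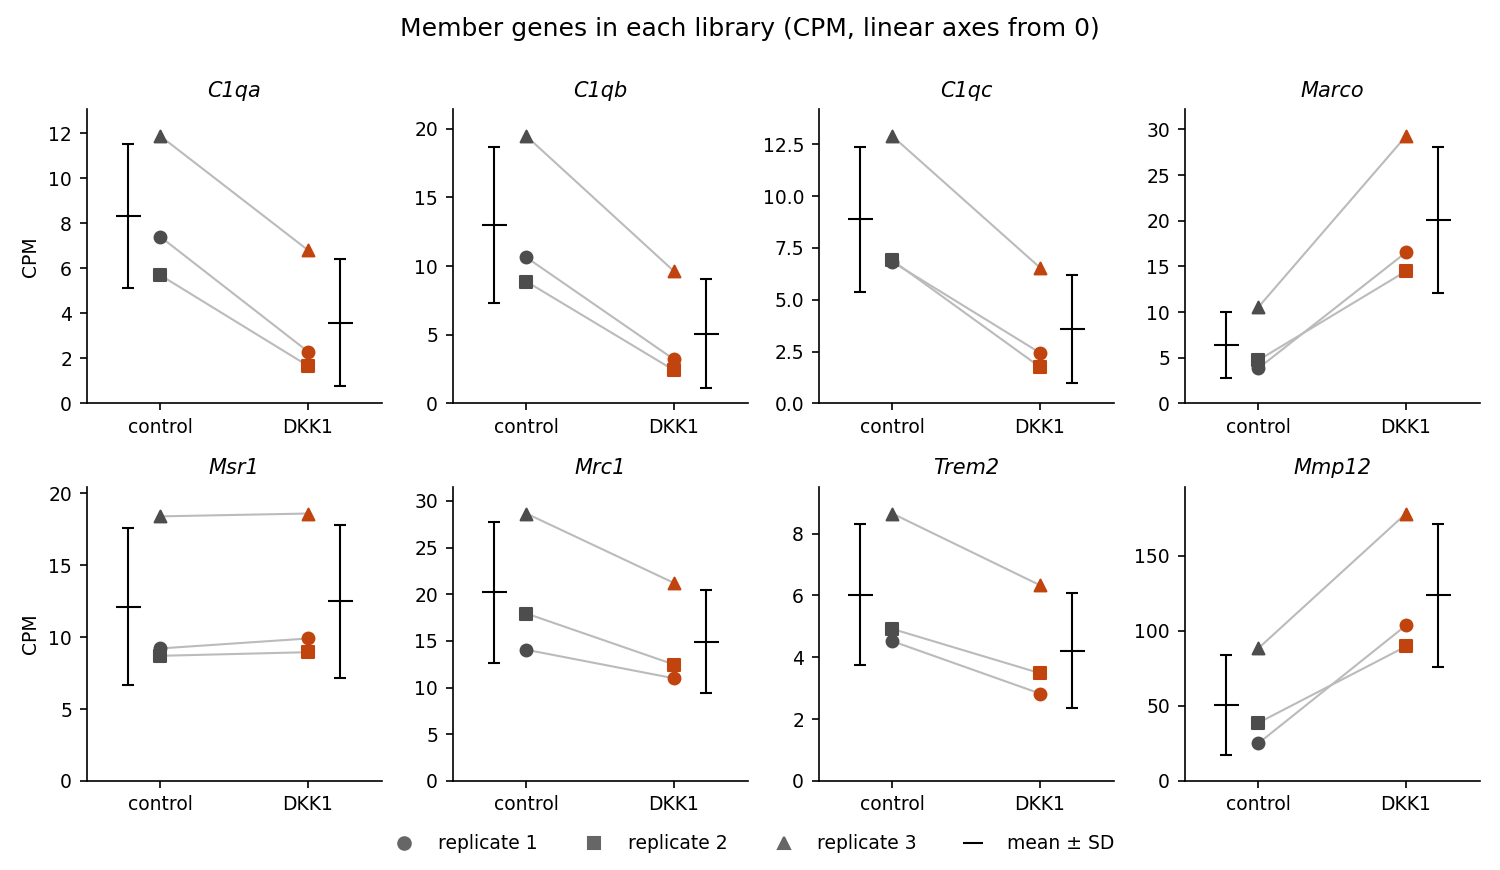
CPM of the 8 detected members in each library, control left and DKK1 right on linear axes from 0, with lines joining libraries of the same replicate number and black bars for the mean ± SD of 3. Every line slopes down for C1qa, C1qb, C1qc, Mrc1 and Trem2 and up for Marco and Mmp12, while replicate 3 (triangles) is the highest library of its group in all 8 panels.

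The partners of C1q in the classical pathway were examined as a list of 8 genes, and 6 of them passed the filter; fibroblasts are known to make several of them. Of these, edgeR called 2 higher without the block and 4 with it (0.697% and 4.96% of all genes tested), and 0 lower. DESeq2 without the block called 3. The median log2 fold change of the 6 genes was 0.38. C1s1 and C1ra encode the proteases that bind C1q to form the C1 complex. C1s1 rose from 9.83 ± 0.718 CPM in control (SD, n = 3) to 17.9 ± 3.09 CPM with DKK1, by 0.86 on the log2 scale in the unpaired fit (SE 0.13, edgeR adjusted p = 0.0255); the unpaired call was lost in 5 of the 6 fits that left out 1 library. C1ra measured 10.1 ± 0.995 and 14.8 ± 2.21 CPM, with an adjusted p of 0.109 unpaired and 0.000329 with the block. C3, the central component, rose from 13.1 ± 2.95 to 47.1 ± 2.05 CPM (log2 fold change 1.83, SE 0.13, adjusted p = 0.00154 unpaired). Serping1, the C1 inhibitor, was called only with the block (log2 fold change 0.17, edgeR adjusted p = 0.00176). The 3 C1q chains and the C1 proteases thus had fitted changes of opposite sign in these libraries.

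Marco (ENSMUSG00000026390, chr1:120474538-120505024, minus strand) was the 1 of the 4 scavenger receptors whose groups did not overlap. It measured 3.86, 4.74 and 10.6 CPM in control and 16.5, 14.5 and 29.3 CPM with DKK1, so that the lowest DKK1 library lay above the highest control library; 9.4% of all tested genes were separated in this direction. Marco rose 1.67 on the log2 scale with the block (SE 0.10, edgeR adjusted p = 2.51e-07), against 1.65 unpaired (SE 0.38, adjusted p = 0.116). Of the 6 unpaired fits that left out 1 library, the one without control replicate 3 called it (log2 fold change 2.19, edgeR adjusted p = 0.0309), and the other 5 did not, with adjusted p from 0.152 to 0.326 and log2 fold changes from 1.29.

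Msr1 (ENSMUSG00000025044, chr8:39581685-39642673, minus strand), which encodes the other class A scavenger receptor among these genes, measured 9.22, 8.70 and 18.4 CPM in control and 9.91, 8.96 and 18.6 CPM with DKK1. Each DKK1 library lay close to the control library of its number, and replicate 3 was the high one in both groups. The log2 fold change was 0.04 with the block (SE 0.07, edgeR adjusted p = 0.805) and 0.03 unpaired (SE 0.34, adjusted p = 0.992), and its sign turned in 3 of the 6 unpaired fits that left out a library. In counts of the same library, Marco stood at 0.418, 0.545 and 0.573 of Msr1 in control and at 1.67, 1.62 and 1.57 of it with DKK1. No library of either group reached the range of the other.

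Mrc1 (ENSMUSG00000026712, chr2:14229392-14332057, plus strand) encodes the mannose receptor, also called CD206, and hosts the microRNA gene Mir511, which was listed at 0 counts in all 6 libraries. It measured 14.0, 17.9 and 28.6 CPM in control and 10.99, 12.5 and 21.2 CPM with DKK1. The groups overlapped and each pair went down by a similar share, to 0.782, 0.695 and 0.740 of control. Mrc1 fell by 0.45 on the log2 scale with the block (SE 0.06, edgeR adjusted p = 0.000384), against -0.46 unpaired (SE 0.29, adjusted p = 0.667).

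Cd163 (ENSMUSG00000008845, chr6:124304656-124330527, plus strand) had 1, 2 and 0 counts in the control libraries and 2, 1 and 1 counts with DKK1, all under the floor of 3 counts and 7 in total. It was not tested, and no fold is given.

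Among the state genes, Mmp12 (ENSMUSG00000049723, chr9:7344381-7369499, plus strand) was the most abundant of all members. It measured 25.0, 38.7 and 88.4 CPM in control and 104, 89.6 and 178 CPM with DKK1. The groups did not overlap, but only just: DKK1 replicate 2 stood slightly above control replicate 3. Mmp12 rose 1.33 on the log2 scale with the block (SE 0.12, edgeR adjusted p = 7.55e-06), against 1.28 unpaired (SE 0.42, adjusted p = 0.288). The unpaired fit called it without control replicate 3 (log2 fold change 1.93, edgeR adjusted p = 0.0438) and not in the other 5 fits that left out 1 library, where adjusted p ran from 0.371 to 0.553 and log2 fold changes from 0.93. Its annotation overlaps Mmp1b on the opposite strand, and how strand was used in counting is not given in the sources used here; Mmp1b itself had 5 to 22 counts per library, against 565 to 4109 for Mmp12.

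Trem2 (ENSMUSG00000023992, chr17:48346401-48354147, plus strand) measured 4.52, 4.92 and 8.65 CPM in control and 2.83, 3.48 and 6.33 CPM with DKK1. The groups overlapped through replicate 3. Trem2 fell by 0.53 on the log2 scale with the block (SE 0.12, edgeR adjusted p = 0.0101), against -0.54 unpaired (SE 0.33, adjusted p = 0.652). This was the largest adjusted p of the 7 calls, and the call was made in 2 of the 5 fits with a block, being lost in DESeq2 and when pair 2 or pair 3 was left out. The fit that left out pair 1 and made the call gave Mmp12 an adjusted p of 8.77e-148 from 4 libraries, which is implausibly small, so its calls carry little weight. Tyrobp, its signalling adaptor, was not called and measured 5.14, 7.61 and 15.1 CPM in control and 6.25, 7.23 and 11.2 CPM with DKK1.

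The start regions of the members that rose are shown for comparison with those of the C1q genes, again as the 250 bases before a RefSeq start (GRCm38.p6), 5′ to 3′ on the gene's strand. Capitals mark GAGGAA or GAGGAAGT, the C/EBP-like letters TTNNGCAA and the AP-1 letters TGANTCA, where N is any base. Mmp12 has 2 RefSeq starts and both are given; they lie 16 and 2993 bases inside the GENCODE gene, so the stretch before the second is within it, while the Marco start is the same in both annotations.
Marco (chr1:120505025-120505274, minus strand): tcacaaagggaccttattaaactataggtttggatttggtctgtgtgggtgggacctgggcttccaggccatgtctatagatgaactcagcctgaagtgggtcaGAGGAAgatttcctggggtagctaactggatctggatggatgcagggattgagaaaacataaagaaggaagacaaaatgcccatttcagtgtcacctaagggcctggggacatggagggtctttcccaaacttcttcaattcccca
Mmp12 upstream start (chr9:7344147-7344396, plus strand): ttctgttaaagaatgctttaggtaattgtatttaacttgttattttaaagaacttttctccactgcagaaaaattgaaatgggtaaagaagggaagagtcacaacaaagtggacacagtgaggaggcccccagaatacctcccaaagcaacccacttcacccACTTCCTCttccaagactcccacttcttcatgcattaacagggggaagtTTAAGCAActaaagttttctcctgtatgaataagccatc
Mmp12 downstream start (chr9:7347124-7347373, plus strand): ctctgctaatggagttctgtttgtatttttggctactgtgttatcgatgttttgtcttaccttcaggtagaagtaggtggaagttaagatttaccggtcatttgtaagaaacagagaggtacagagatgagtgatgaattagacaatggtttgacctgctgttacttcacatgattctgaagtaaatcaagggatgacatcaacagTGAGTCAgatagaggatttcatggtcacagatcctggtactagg
Marco held GAGGAA 146 bases before its start. The window of the upstream Mmp12 start held GAGGAAGT on the opposite strand 88 bases before it and TTNNGCAA 39 bases before it. That of the downstream start held TGANTCA 44 bases before it and TATAAA, the TATA box letters, from base 5 after it.

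Sequences were found for 7 members in 8 windows; C1qa and Msr1 are named only. GAGGAA was in 6 of the 8 windows, those of C1qb, C1qc, Marco, Mrc1, Trem2 and the upstream start of Mmp12, so that members of both directions carried it, against 28.3% of all windows. GAGGAAGT was in 2, TTNNGCAA in 2 (10.8% of all windows), TGANTCA in 2 (7.81%) and TATAAA in 1 (13.6%). The C/EBP palindrome TTGCGCAA, whose matches all match TTNNGCAA too, the NF-kB site and the MAF site, which contains TGANTCA, were each in 0 of the 8 windows, and in 0.183%, 0.155% and 0.423% of all windows. The absence says only that these letters are not in these windows.

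Since replicate 3 carried more macrophage RNA, each member was also expressed per 1000 counts summed over the 23 macrophage markers of the same library, a list that shares no gene with the members and of which Lyz2 (also made by alveolar type II cells) gave 62.6% to 66.4%. On this scale C1qb stood at 20.2, 14.4 and 18.6 in control and 5.44, 3.78 and 8.84 with DKK1, and C1qc at 12.9, 11.2 and 12.3 against 4.14, 2.75 and 6.01. The control libraries drew together and no DKK1 library reached the control range. Trem2, at 8.57, 8.00 and 8.25 against 4.79, 5.45 and 5.82, and Mrc1, at 26.6, 29.2 and 27.3 against 18.6, 19.5 and 19.5, overlapped in CPM and were apart here. Marco stood at 7.31, 7.71 and 10.1 against 28.0, 22.6 and 26.9. Mmp12 ran from 47.5 to 84.3 in control and from 140 to 176 with DKK1. Msr1 stayed mixed, at 14.2 to 17.6 and 14.0 to 17.1.

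In all, 2 members had their DKK1 values wholly above control (0.827% of all tested genes on this scale) and 5 wholly below (0.977%). With Csf1r counts alone as the denominator the C1q genes, Marco and Mmp12 were apart too (3.24% of all tested genes wholly above, 0.232% wholly below). Mrc1 and Trem2 then overlapped, Trem2 standing at 226 to 266 per 1000 Csf1r counts in control and 151 to 252 with DKK1. Csf1r was itself among the markers that were lower with the block, as described next, which raises ratios to it. The marker sum was slightly higher with DKK1 in each pair, which lowers them. It stood at 527, 615 and 1048 CPM in control and 590, 640 and 1089 CPM with DKK1. The marker sum itself ran from 527 to 1048 CPM within control. Dividing by such a denominator spreads genes that do not follow it. The shares of all genes on these scales are therefore no fair measure of how rare the separation is, against 16.5% separated in CPM. These ratios are descriptions and were not tested.

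**Figure D3:**
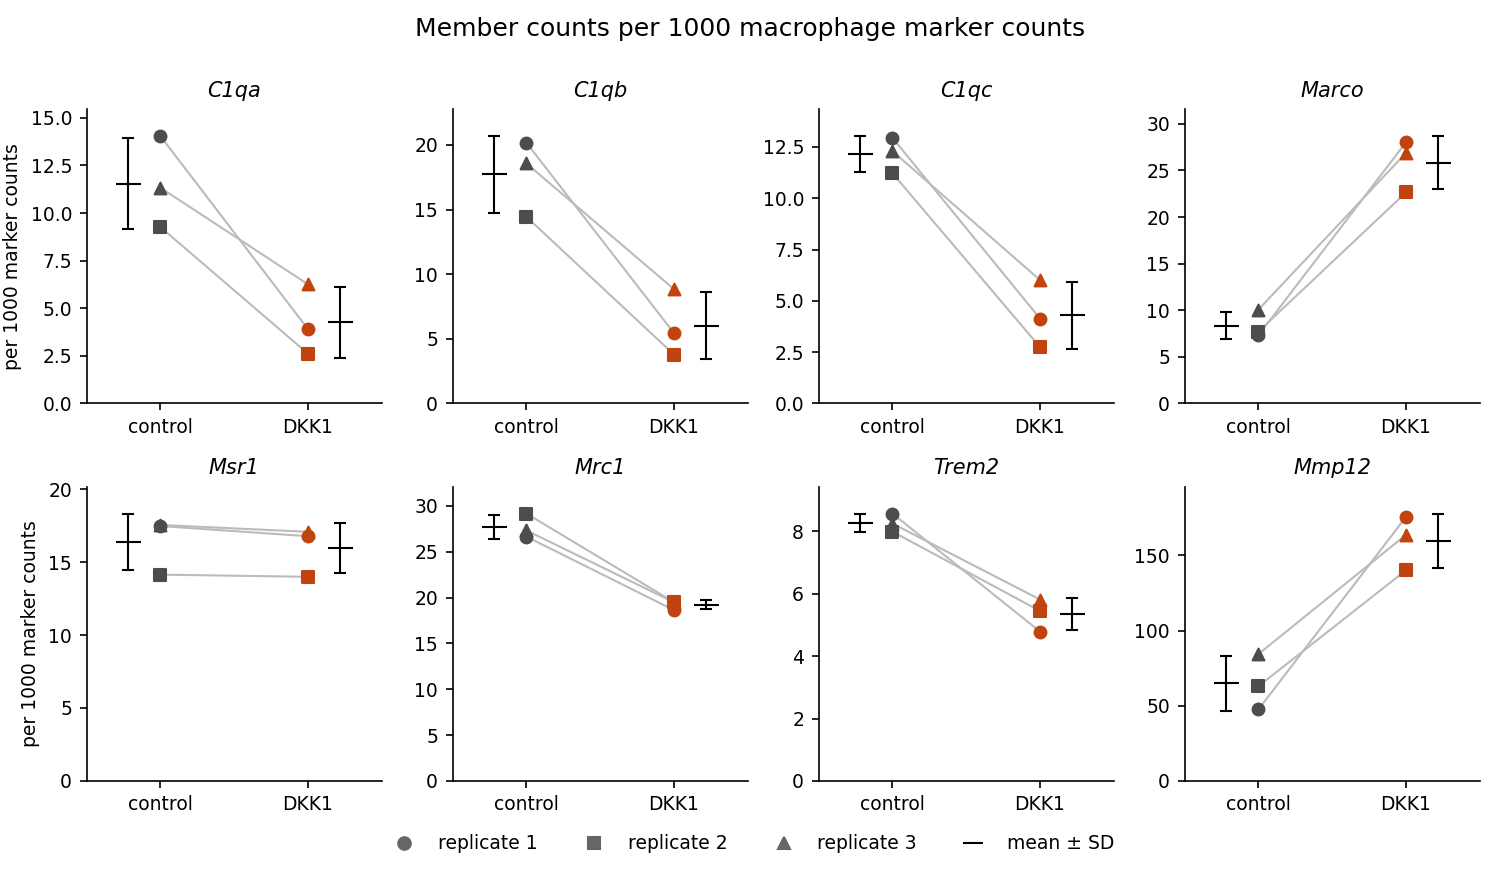
Counts of each member per 1000 counts of the macrophage marker sum in the same library, control left and DKK1 right on linear axes from 0, lines joining the same replicate number and black bars the mean ± SD of 3. For Mrc1 the 3 control libraries lie at 26.6 to 29.2 and the 3 DKK1 libraries at 18.6 to 19.5, and of the 8 panels only that of Msr1 shows overlapping groups.

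The macrophage markers did not all move one way. Of the 23, 22 were tested, with 10 fitted higher and 12 lower and a median log2 fold change of -0.13. Without the replicate block edgeR called 1, as did DESeq2 by count; the edgeR call was Cd14, the endotoxin co-receptor, which fibroblasts can also express; it rose from 9.31 ± 0.222 CPM in control (SD, n = 3) to 16.8 ± 1.18 CPM with DKK1 (log2 fold change 0.85, SE 0.08, edgeR adjusted p = 0.0028). DESeq2 with the block called 5 in all, while edgeR called 5 higher and 5 lower with it (4.96% and 4.46% of all genes tested). Those higher were Itgam, the integrin chain CD11b (log2 fold change 1.07, edgeR adjusted p = 7.23e-08), Cd14, Cybb, a subunit of the phagocyte oxidase (0.77, adjusted p = 3.17e-07), Cd53 (0.69, adjusted p = 0.000567) and Adgre1, which encodes F4/80 (0.54, adjusted p = 0.00179).

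Those lower were Fcgr1, the high-affinity antibody receptor (log2 fold change -1.58, edgeR adjusted p = 0.00249), the chemokine receptor gene Cx3cr1 (-1.08, adjusted p = 0.0159), the protease gene Ctss (-0.38, adjusted p = 0.000105), Laptm5 (-0.32, adjusted p = 0.00163) and Csf1r, the CSF1 receptor (-0.25, adjusted p = 0.0364). Fcgr1 measured 1.06, 1.17 and 2.12 CPM in control and 0.314, 0.403 and 0.737 with DKK1, and Itgam 11.5, 12.6 and 20.6 against 26.3, 25.0 and 43.2. Both were separated between the groups, in opposite directions. Ptprc (CD45), Spi1 (PU.1), Fcer1g and Lyz2 were not called in either fit; Spi1 measured 3.77 to 7.11 CPM in control and 4.19 to 7.33 with DKK1. Of 9 alveolar macrophage markers 5 were tested, and with the block 0 were called higher and 1 lower, Siglecf, at 1.03 to 2.25 CPM in control and 0.419 to 0.867 with DKK1 (log2 fold change -1.17, edgeR adjusted p = 0.019).

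**Figure D4:**
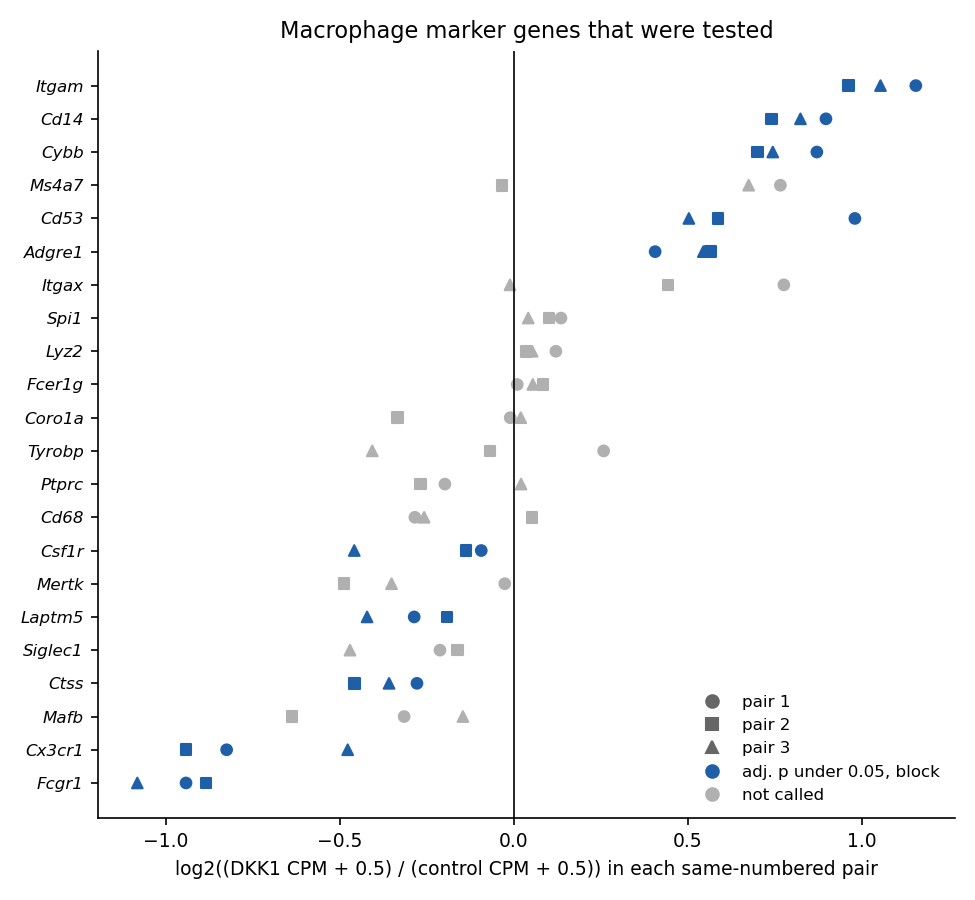
Log2 ratio of DKK1 to control CPM, each plus 0.5, in the 3 same-numbered pairs (circle, square and triangle) for the 22 macrophage markers tested; blue marks those called with the replicate block. The 5 called higher and the 5 called lower have all 3 points on their own side of 0, and Spi1, Lyz2 and Fcer1g lie near 0.

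Several defining markers of other leukocytes were absent. The neutrophil genes Ly6g and Retnlg, the T cell genes Cd3e and Cd3g, the dendritic cell gene Cd209a and the mast cell gene Cpa3 were at 0 in all 6 libraries. The 6 neutrophil markers summed to 1.02 to 1.77 CPM in control and 2.68 to 4.03 CPM with DKK1, and 1 of them was tested: S100a8, at 1.16 ± 0.462 and 3.27 ± 0.737 CPM (SD, n = 3 each; edgeR adjusted p = 0.0705 unpaired and 0.000308 with the block). Its partner S100a9 had 0 to 2 counts per library. The 5 T cell markers summed to at most 0.867 CPM and the 4 B cell and 4 dendritic cell markers to less. The 4 mast cell markers summed to 1.82 to 4.86 CPM in control and 1.57 to 4.90 CPM with DKK1. Nearly all of this was Kit, at 1.77 to 4.72 and 1.47 to 4.81 CPM. Mcpt4 reached at most 0.0441 CPM and Ms4a2 at most 0.177 CPM, so the sum is no sign of mast cells. Mcpt8, a basophil protease gene outside these lists, averaged 12.3 CPM in control and 22.7 CPM with DKK1 (edgeR adjusted p = 0.157 unpaired and 6.24e-06 with the block). Mcpt8 alone does not show that basophils were present. The part of other leukocytes in the members' changes was not tested.

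Other scavenger and phagocytosis genes formed a list of 37, many of them made by fibroblasts too; 31 were tested, with a median log2 fold change of -0.02. Without the block edgeR called 1 and DESeq2 4; the edgeR call was Cd47, the signal that restrains engulfment, which rose from 78.0 ± 3.37 CPM in control (SD, n = 3) to 97.8 ± 2.97 CPM with DKK1 (log2 fold change 0.32, SE 0.05, edgeR adjusted p = 0.02). This unpaired call was lost in 4 of the 6 fits that left out 1 library, those without replicate 1 or 2 of either group, with adjusted p up to 0.0986. DESeq2 with the block called 7 in all, while edgeR called 6 higher and 5 lower with it (4.96% and 4.46% of all genes tested). Higher, beside Cd47, were the scavenger receptors Olr1 (log2 fold change 0.76, edgeR adjusted p = 0.00781), Cxcl16 (0.76, adjusted p = 0.000118) and Cd36 (0.33, adjusted p = 0.00418), the glucan receptor gene Clec7a (0.49, adjusted p = 0.00361) and Pros1, a bridging protein for dying cells (0.25, adjusted p = 3.07e-05). Lower were Fcgr1, given above, Stab1 (log2 fold change -0.62, edgeR adjusted p = 0.00035), the bridging ligand gene Gas6 (-0.34, adjusted p = 2.98e-05), Sirpa, the receptor for CD47 (-0.21, adjusted p = 0.0362), and Axl, a receptor for GAS6 (-0.07, adjusted p = 0.0107).

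A further list held 33 genes used to describe macrophage states, 22 of them tested, with a median log2 fold change of 0.06. Without the block 0 were called by edgeR, where 6 had an unadjusted p under 0.05, and DESeq2 without the block called 2. DESeq2 with the block called 7 in all, while edgeR called 4 higher and 4 lower with it (4.96% and 4.46% of all genes tested). Higher were Mmp9 (log2 fold change 1.33, edgeR adjusted p = 4.93e-06), Socs3 (0.58, adjusted p = 2.73e-05), Spp1, which encodes osteopontin (0.32, adjusted p = 2.66e-05), and Plin2 (0.13, adjusted p = 0.00701). Lower were the lipid genes Apoe (log2 fold change -0.59, edgeR adjusted p = 2.61e-05) and Lpl (-0.43, adjusted p = 3.74e-06), Gas6 and Mmp14 (-0.11, adjusted p = 0.00195). Mmp9, a matrix protease like Mmp12, measured 4.03, 3.75 and 14.9 CPM in control and 13.5, 10.7 and 30.5 CPM with DKK1. Retnla and Il10 were at 0 counts in all libraries, and Chil3, at 2.44 to 7.64 CPM in control and 2.72 to 6.42 with DKK1, was not called.

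Levels can be compared between genes per length, as CPM per kilobase of the longest principal transcript. In control the order was Mmp12 at 14.1 ± 9.24 (SD, n = 3), C1qb at 11.9 ± 5.22, Msr1 at 8.50 ± 3.83, C1qa at 8.00 ± 3.07, C1qc at 7.37 ± 2.89, Trem2 at 5.54 ± 2.10, Mrc1 at 3.76 ± 1.41 and Marco at 3.32 ± 1.89. Neighbours in this order differed by less than the larger of their SDs. These SDs hold the high replicate 3 that all members share, so they do not measure differences between genes within a library. With DKK1 Mmp12 led at 34.3 ± 13.2, followed by Marco at 10.4 ± 4.16 and Msr1 at 8.77 ± 3.73. C1qb (4.67 ± 3.63), Trem2 (3.87 ± 1.71), C1qa (3.46 ± 2.69), C1qc (2.98 ± 2.15) and Mrc1 (2.77 ± 1.03) followed, neighbours again differing by less than the larger SD, while the steps from Mmp12 to Marco and from Msr1 to C1qb were larger than it.

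**Figure D5:**
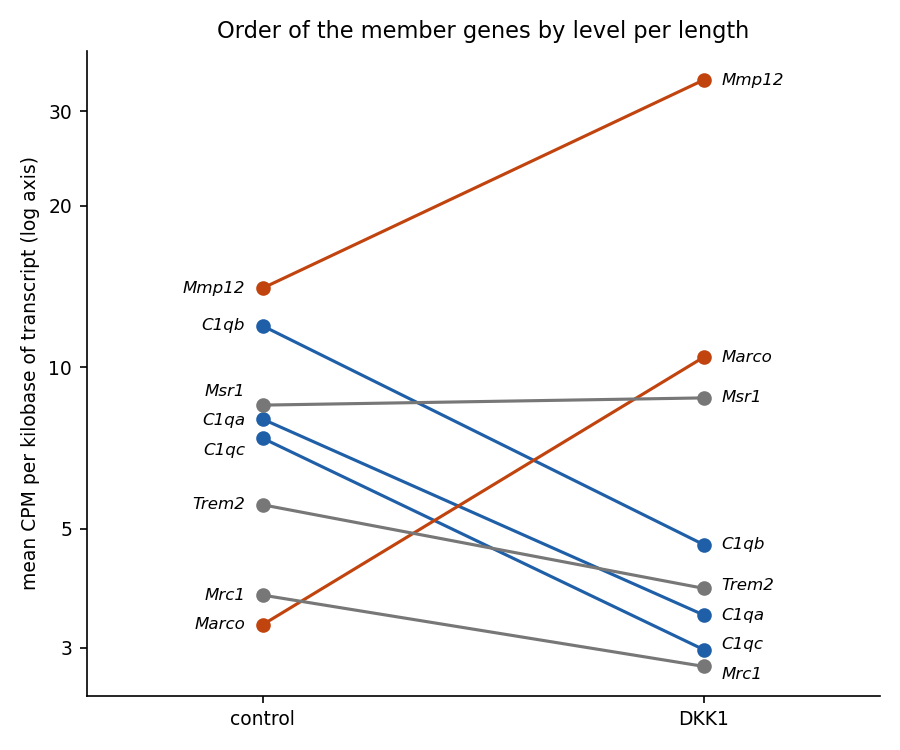
Mean CPM per kilobase of transcript over 3 libraries, on a log axis, for the 8 detected members in control (left) and DKK1 (right) cells; blue marks the C1q genes, red Marco and Mmp12, and grey the others. Marco goes from 3.32 to 10.4 and C1qb from 11.9 to 4.67, so their order changes.

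Across the 6 libraries the profiles of log2(CPM + 0.5) were compared between members. Pearson correlations were 0.991 to 0.998 among the C1q genes and 0.983 between Marco and Mmp12. Between the C1q genes and Marco or Mmp12 they were -0.323 to -0.203. Mrc1 and Trem2 correlated at 0.986 with each other and at 0.844 to 0.901 with the C1q genes. With Marco they correlated at 0.058 and -0.002, and with Mmp12 at 0.196 and 0.118. Msr1 correlated at 0.561 to 0.802 with each of the other members tested. The 6 points share the treatment and the high replicate 3, so these values only describe the libraries.

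The genes outside the members whose profile was most like the mean of the 8 standardised members were Akap5, Fmnl1, Pot1b, Shtn1, Sfn, Mtcl1, Kcnk1, Cd300a, Cyth4 and Pdgfb, with Pearson correlations of 0.991 to 0.998 over 6 libraries; 373 of 13011 genes compared exceeded 0.9. Sfn is an epithelial gene and Cd300a a myeloid receptor gene, and the epithelial markers summed to 9.53, 13.1 and 35.3 CPM in control and 9.63, 9.19 and 38.0 CPM with DKK1, high in replicate 3 of both groups. Taken separately, a choice made after seeing the data, the mean of Marco and Mmp12 was most closely followed by Mcpt8, Clec4n, Gsr, Gnpda1, Bst1, Cdh6, Gzme, Brd7, Thoc1 and Itgam (0.9896 to 0.999), and that of the C1q genes by Sgk3, Kcnab1, Lcat, Tagln, Ptges2, Jag1, Mthfd2, Map2k3, Pkp4 and Slc7a1 (0.984 to 0.997). Clec4n, which encodes the receptor dectin-2 of myeloid cells, measured 7.26 CPM in control and 17.6 CPM with DKK1 on average.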

How the data were processed

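RNA sequencing of 6 samples (3 control, 3 DKK1) was used. Per the submitters' processing notes, STAR, RSEM and edgeR 4.2.1 and the builds GRCm38 and mm10 were used; annotation release, strand setting and filters are not given in the sources used here. The deposited values are RSEM expected counts per gene, which need not be whole and were not scaled; those of all 9 members were whole. Symbols were found for 45143 of 45706 identifiers (98.8%). Positions and lengths came from GENCODE M21 (GRCm38).

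Expected counts were rounded, and R 4.3.3 was used to run edgeR 4.0.16 (filterByExpr with a minimum of 10 counts, TMM, two-sided quasi-likelihood test, Benjamini-Hochberg adjustment over 14635 genes, threshold 0.05). Standard errors are approximate, from |log2 fold change| and the F statistic. All 8 members tested passed the filter in either group alone. Replicate numbers come from the sample titles. Residuals about the group mean correlated between samples of 1 number at 0.335 to 0.498 across genes and between other samples at -0.332 to 0.0666, so the numbers were taken as pairs. The residuals of a group sum to 0 for each gene, so these ranges are not independent. All values from -0.332 to -0.2595 involved replicate 3. Between numbers 1 and 2 they were 0.0666 and -0.0166, against 0.349 and 0.335 within these numbers. The block lowered the biological coefficient of variation from 6.99% to 2.30%. On counts simulated for this comparison over 14635 genes, without pairs, the unpaired fit recovered 78.4% of 2-fold and 96.8% of 4-fold changes with 15 false calls, and the fit with the block 80.4% and 96.8% with 21 false calls.

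A further gene of the set is not reported here. The members, lists and tests were chosen with earlier results of these data known. Named genes were the members, the genes of each list called in either fit (up to 6 per direction) and the 10 genes most correlated with the members; genes named as uncalled or at 0, Clec4n and Mcpt8, were chosen after their values were seen. Alternatives were DESeq2 1.42.0 (size factors, and its test without and with the block), library totals, other filters, the block, and leaving out libraries; those leaving out a whole pair, and the profiles of member subsets, were added after seeing the data.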

Additional observations from a re-analysis of the deposited data

How the results depend on the processing

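Without the replicate block 0 of 8 members, 1 scavenger or phagocytosis gene, 1 macrophage marker, 0 state genes, 2 C1 partners and 131 genes in all were called, and these 6 counts are taken below in that order. With the replicate block they became 7, 11, 10, 8, 4 and 1379; all 131 unpaired calls were among the 1379, of which 726 were higher, against 102 of 131. The sample pairing thus moved every count. DESeq2 with the replicate block gave 6 members, 7 scavenger genes, 5 markers, 7 state genes and 551 genes in all. DESeq2 unpaired gave 4 scavenger genes, 2 state genes and 289 in all. Without a low-count filter, where 23883 genes were tested, 4 members, 6 scavenger genes, 4 markers, 2 state genes and 329 genes in all were called; the cause was not tested. DESeq2 size factors, library totals and a minimum of 10 counts in every library left 0 members called and 129 to 135 genes in all.

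Leaving out 1 library at a time gave 0 to 3 members (2 without control replicate 3, 3 without DKK1 replicate 3), 0 to 2 scavenger genes, 1 marker, 0 to 1 state gene, 1 to 2 C1 partners and 36 to 139 genes in all. Member log2 fold changes then ran from -2.07 to -0.90 for C1qa, -2.21 to -1.002 for C1qb, -2.08 to -1.001 for C1qc, 1.29 to 2.19 for Marco, 0.93 to 1.93 for Mmp12, -0.78 to -0.14 for Mrc1 and -0.92 to -0.20 for Trem2. Msr1 turned to -0.13 without control replicate 1, -0.17 without control replicate 2 and -0.35 without DKK1 replicate 3, and reached 0.45.

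Leaving out a whole pair was added after seeing the data. Unpaired, without replicate 3 of both groups, 5 members (the C1q genes, Marco and Mmp12), 2 scavenger genes, 3 markers, 3 state genes and 149 genes in all were called. Without replicate 1 or without replicate 2 of both groups the unpaired fit called 0 members, 0 scavenger genes, 0 markers, 1 and 0 C1 partners, and 6 and 5 genes in all. With the replicate block and without replicate 1, 2 or 3 of both groups, 7, 6 and 6 members, 13, 7 and 10 scavenger genes, 12, 8 and 11 markers, 10, 7 and 8 state genes, 4, 4 and 4 C1 partners and 1312, 612 and 1059 genes in all were called. These fits rest on 4 libraries, and the one without replicate 1 gave implausibly small adjusted p (8.77e-148 for Mmp12), so its counts are no check of stability.

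Per Csf1r count in place of the marker sum, the log2 ratio of group means went from 1.63 to 1.95 for Marco, -0.04 to 0.30 for Msr1, -0.53 to -0.20 for Mrc1, -0.63 to -0.28 for Trem2, -1.44 to -1.05 for C1qa, -1.56 to -1.17 for C1qb, -1.50 to -1.13 for C1qc and 1.30 to 1.61 for Mmp12. Without Lyz2, Ctss and Cd68 in the sum it was -0.67 for Mrc1 and -0.76 for Trem2. Cd163 had 0 to 2 counts per library.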
